A study of Canis lupus familiaris with 34 samples.

Results

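The heat shock proteins and their co-chaperones were examined in mitral valves of 34 Cavalier King Charles Spaniels. Members were chosen by gene symbol, as the HSPA, HSPB and HSP90 genes, HSPD1, HSPE1 and HSPH1, the DNAJA, DNAJB and DNAJC genes and the numbered BAG genes. This gave 75 genes of the 22035 symbols in the count table, namely 15 HSPA, 8 HSPB, 3 HSP90, 4 DNAJA, 13 DNAJB, 24 DNAJC and 5 BAG genes and 3 other heat shock proteins. BAG2 and DNAJC10 were not analysed here. Of the 75 genes, 73 reached a sum of 100 counts over all dogs and entered the tests.

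The 19 dogs of the 10y-noCHF group (10 females, 9 males) had not developed congestive heart failure (CHF). The 15 dogs of the 10y-MMVD-CHF group (6 females, 9 males) had CHF due to myxomatous mitral valve disease (MMVD), a degeneration of the valve leaflets. All were privately owned, about 10 years old and recruited at elective euthanasia. The study's diagnosis of CHF drew in part on the response to diuretics, so such treatment cannot be told apart from CHF here. The 10y-noCHF dogs were not free of disease, since nearly all had MMVD at an earlier clinical stage, so the comparison is of CHF against no CHF. RNA came from bulk valve tissue, in which fewer cells of a type and less RNA per cell cannot be told apart. The groups are called CHF and noCHF dogs below.

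Chaperones bind unfolded proteins and help them to fold, or pass them on for degradation. HSP70 proteins (HSPA genes) work in cycles of ATP binding, in which J-domain proteins (DNAJ genes) deliver the substrate and start hydrolysis, and nucleotide exchange factors such as the BAG proteins and HSPH1 release it. HSP90 proteins act later on kinases and steroid receptors, and small heat shock proteins (most of the HSPB genes) hold unfolded proteins without using ATP. A set of these genes is switched on by heat shock factor HSF1 under stress, and in heart the small heat shock proteins and BAG3 help to maintain the contractile apparatus.

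The libraries held 46185256 to 82361245 counts per dog, and the members took 0.55% to 0.869% of them. All 8 markers of valve interstitial cells were detected in every dog, with a mean of 10.31 to 11.60 log2 CPM (CPM are counts scaled to a common library size). The mean of 19 cardiomyocyte markers, of which 1 had no counts in at least 1 dog, ran from -0.08 to 10.47 log2 CPM, and its median was 7.20 in CHF dogs and 6.44 in noCHF dogs. The dog highest in cardiomyocyte markers was CAV1047, and CAV614 was highest in red blood cell markers, at 2.23 against at most -0.09 log2 CPM in the noCHF dogs.

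What a count stands for differed between members. The features of 6 tested members are canine RefSeq genes and hold exons, whereas those of the other 67 are human RefSeq alignments. Of these, 62 could be set beside a canine RefSeq gene, and in 50 the feature was at least 80% as long as the whole gene with its introns. The features of HSPB3, HSPE1 and DNAJC28 cover only a small stretch of their gene. The canine DNAJA1 feature, made of 9 stretches, lies on chromosome 11 over LOC119863874. The RefSeq positions used here place DNAJA1 on chromosome 26, in a span of only 29882770 to 29884243. Whether LOC119863874 is DNAJA1 under another symbol was not examined. No other protein-coding RefSeq gene lay in the feature of 47 tested members, and 26 features overlapped at least 1 such gene, so their counts may include reads of a neighbour. DNAJA1 is among the 26 only because of LOC119863874.

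With edgeR's quasi-likelihood test and sex as a fixed effect, 0 of 73 members had an FDR (adjusted p) below 0.1 for CHF, while 23 of 19568 features (0.118%) did. DESeq2 called BAG4 alone among the members (64 features, 0.327%), and limma voom called BAG4 as well (25 features, 0.128%). At an unadjusted p below 0.05 there were 7 members, or 9.59% of those tested, against 6.31% of all features. BAG4, DNAJC17 and DNAJC13 were the higher ones, and HSPA1A, HSPA1B, HSPA6 and HSPA7 the lower ones. The latter 4 features all overlap the HSP70 locus, and with that locus counted once, a choice made after seeing the data, the number was 4 of 70.

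Most members differed little between the groups. The log2 fold change was between -0.1 and 0.1 for 47 of the 73, and the median was 0.024 against 0.008 for all features. Positive values were found for 46 members and negative values for 27, against 10295 and 9273 of all features. Sign counts of members and lists are descriptive and were not tested. Estimates beyond 0.3 in either direction belonged to 6 members, which were the HSP70 features HSPA1A, HSPA6 and HSPA7 and the variable genes HSPB9, DNAJB13 and DNAJC6.

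**Figure D1:**
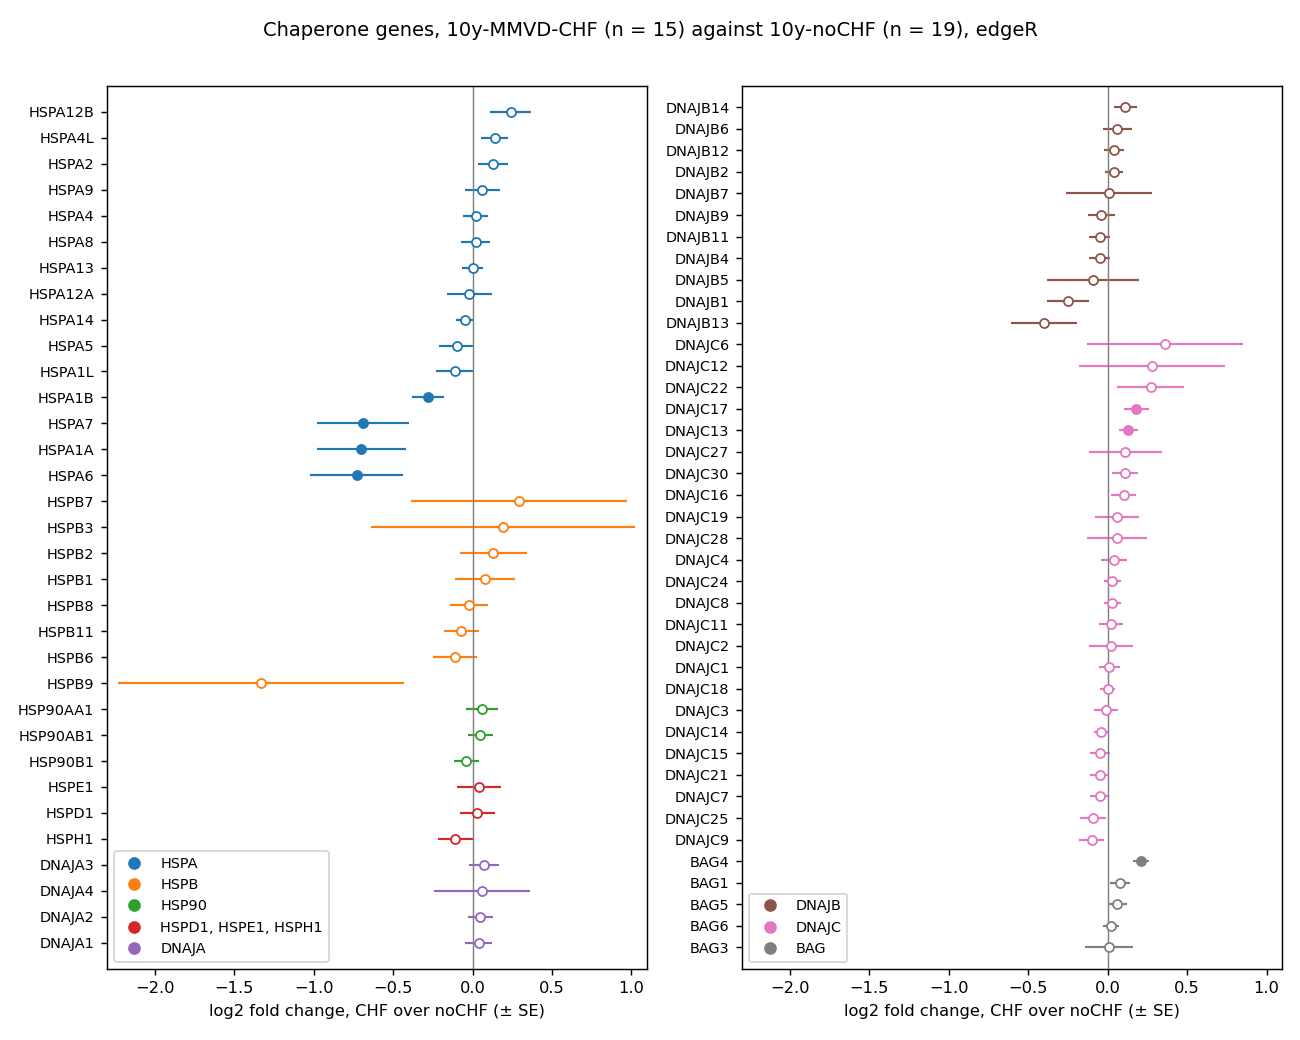
Log2 fold change of each of the 73 tested members, CHF over noCHF dogs (edgeR, sex as a fixed effect), with bars of ± 1 SE and colours for families. Filled points have an unadjusted p below 0.05, and none had an FDR below 0.1. BAG4 has a short bar at 0.21, and HSPA1A, HSPA6 and HSPA7 lie near -0.7.

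BAG4, also known as SODD, binds the HSP70 ATPase domain and is known for keeping death domains of TNF receptors silent. Its feature is a single span on chromosome 16, 28008932 to 28041786 on the minus strand of canFam4, inside the RefSeq gene (28004912 to 28042966), and holds no other protein-coding gene. BAG4 ran from 17.5 to 22.6 CPM with a median of 21.3 in CHF dogs, and from 13.9 to 21.1 CPM with a median of 17.9 in noCHF dogs. The ranges overlapped, but 14 of 15 CHF dogs lay above the noCHF median and 8 lay above every noCHF dog. The means were 20.5 ± 1.68 CPM (SD, n = 15) and 17.8 ± 1.89 CPM (SD, n = 19). The log2 fold change was 0.21 (SE 0.052, 95% interval 0.11 to 0.31), a 1.16-fold difference. In edgeR the p was 0.000303 and the FDR 0.185, so BAG4 was not called by that test. The FDR was 0.0409 with DESeq2 and 0.0706 with limma voom.

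BAG4 had been noted in earlier results of these dogs, so its low p is not independent evidence. With any single dog removed, the edgeR log2 fold change stayed between 0.19 and 0.23. The FDR fell below 0.1 only without CAV1049 (0.0866) and was highest without CAV1519 (0.332). With the cardiomyocyte marker mean as a covariate the log2 fold change was 0.21 (FDR 0.183), and the slope of BAG4 on that mean was -0.00 (SE 0.009, FDR 0.855).

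The separation of BAG4 was seen in females. The 6 female CHF dogs had 20.5 to 22.5 CPM (21.6 ± 0.681, SD), and all lay above the 10 female noCHF dogs with 15.6 to 19.6 CPM (17.6 ± 1.55, SD). BAG4 was the only tested member with such a gap, which 24 of 19568 features (0.123%) showed. In the lower direction 17 features (0.0869%) had a gap in females, and 0 members did. In males the ranges overlapped, at 17.5 to 22.6 CPM (19.7 ± 1.75, SD, n = 9) in CHF dogs and 13.9 to 21.1 CPM (17.9 ± 2.29, SD, n = 9) in noCHF dogs, and 0 features (0%) had a gap in either direction. The difference between the sexes itself was -0.16 on the log2 scale for males (SE 0.1, edgeR interaction p = 0.142, FDR 0.878), so the sexes were not shown to differ.

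The other BAG genes showed no difference of this kind, although all 5 estimates were positive. BAG1, which links HSP70 to the proteasome, had 93.7 ± 12.7 CPM in CHF dogs (SD, n = 15) and 87.9 ± 12 CPM in noCHF dogs (SD, n = 19), a log2 fold change of 0.08 (95% interval -0.05 to 0.20, FDR 0.904). BAG3, which directs damaged contractile proteins to autophagy, had 89.6 ± 42 and 89.7 ± 22.8 CPM, a log2 fold change of 0.01 (interval -0.29 to 0.30, FDR 0.998). Its large SD in CHF dogs came with CAV1047, at 231 CPM, the next dog of all having 131 CPM. BAG5, an exchange factor of HSP70, had a log2 fold change of 0.06 (interval -0.05 to 0.18, FDR 0.925). BAG6, which guards newly made membrane proteins, had 0.02 (interval -0.08 to 0.12, FDR 0.979), and its feature overlaps APOM.

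**Figure D2:**
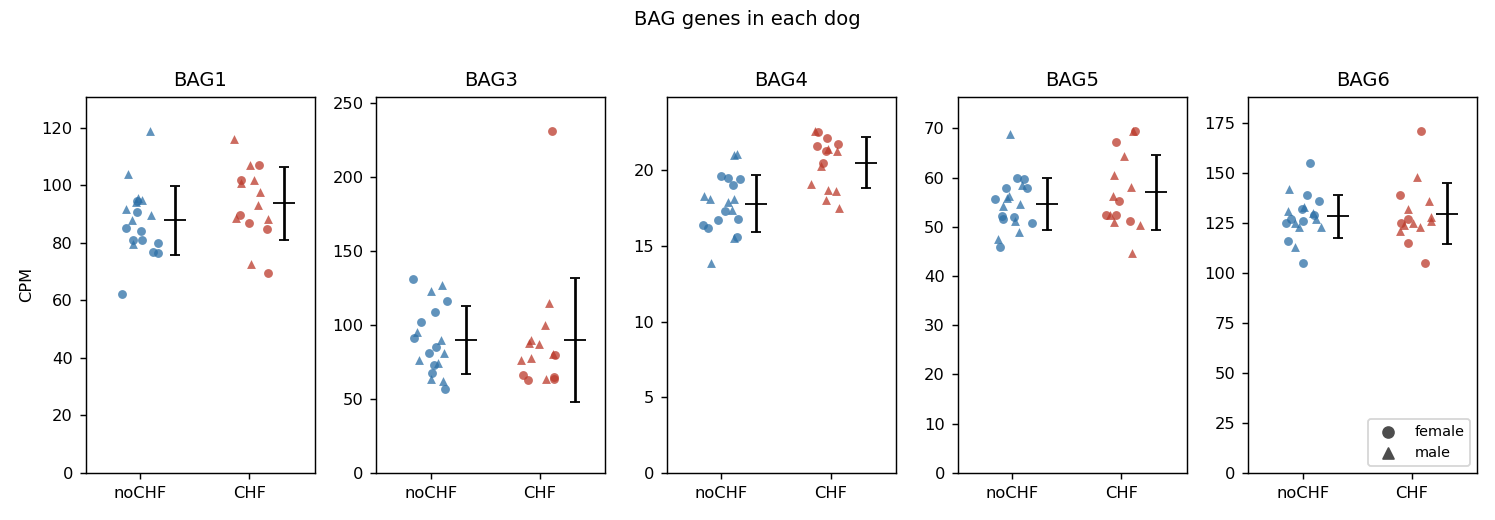
CPM of the 5 BAG genes in each dog by group, with circles for females and triangles for males; black bars give the mean ± SD over the dogs of a group (n = 19 and n = 15), and each panel has its own axis from 0. BAG4 is the panel with the clearest shift (17.8 against 20.5 CPM), and a single dog at 231 CPM stands above the rest for BAG3.

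HSPA1A encodes the classical stress-inducible HSP70. The locus on chromosome 12 is also counted as a canine RefSeq gene named HSP70 (1418719 to 1421109, plus strand), which is outside the symbol rule but holds exons of that gene only. HSPA1A has 1 block over it and another about 13.6 kb downstream, HSPA6 covers most of both and what lies between, and HSPA7 repeats the blocks of HSPA1A in shorter form. HSPA1B runs on for 117.866 kb and overlaps 9 protein-coding genes, HSP70 itself, C2, CFB and EHMT2 among them. HSPA1A, HSPA6 and HSPA7 therefore share reads and are not separate measurements. HSPA1B holds both blocks of HSPA1A and shares their reads too, though only 1.6% of its bases lie over canine HSP70. Its total was 776295 counts against 145248 for HSPA1A, so most of its counts came from outside the blocks of HSPA1A.

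**Figure D3:**
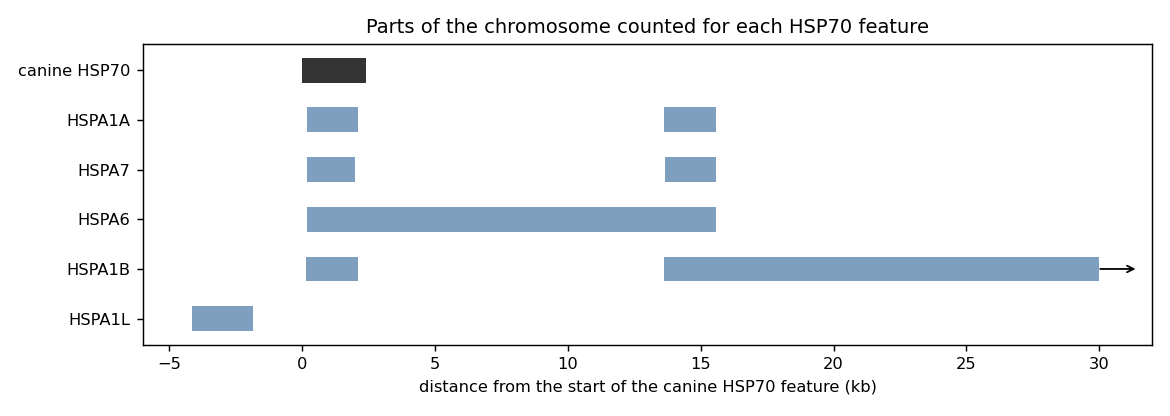
Parts of the chromosome counted for the HSP70 features, as distance in kb from the start of the canine HSP70 feature (dark bar), with human RefSeq alignments as light bars and an arrow where HSPA1B runs past the edge. The first blocks of HSPA1A, HSPA7, HSPA6 and HSPA1B all lie within 0 to 2.39 kb over the canine gene, except that HSPA6 goes on to 15.556 kb, and HSPA1L lies upstream.

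The canine HSP70 feature ran from 11.2 to 155 CPM with a median of 39.1 in CHF dogs, and from 31.9 to 193 CPM with a median of 74.2 in noCHF dogs. The groups overlapped widely, with 13 of 15 CHF dogs below the noCHF median and 3 below every noCHF dog. The log2 fold change was -0.73 (SE 0.28, 95% interval -1.27 to -0.18, p = 0.0133), with an edgeR FDR of 0.626 and 0.442 by DESeq2. HSPA1A gave -0.70 (SE 0.28, FDR 0.672), HSPA6 -0.73 (FDR 0.637), HSPA7 -0.69 (FDR 0.71) and HSPA1B -0.28 (FDR 0.607). None of these passed, and between the highest and the lowest dog the canine feature differed 17.3-fold. The estimate for HSPA1A ranged from -0.88, without CAV1872, to -0.54, without CAV488.

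DNAJB1, the J protein that works with HSP70 in the heat shock response, varied in step with it. DNAJB1 ran from 49.5 to 124 CPM (median 65.7) in CHF dogs and from 52.9 to 188 CPM (median 75.9) in noCHF dogs. Its log2 fold change was -0.25 (SE 0.13, edgeR p = 0.0747, FDR 0.813), and it was -0.13 without CAV488 and -0.34 without CAV1872. After removal of group and sex means, its log2 CPM correlated with that of HSPA1A over the 34 dogs with Pearson's r = 0.78 (permutation p = 1e-05, the smallest 100000 permutations can give, adjusted p = 9.00e-05) and Spearman's rho = 0.79 (permutation p = 1e-05, adjusted p = 9.00e-05). Within groups r was 0.75 in CHF dogs and 0.80 in noCHF dogs, and it was 0.75 without CAV648 and CAV488, the dogs farthest from the median of HSPA1A.

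This was the strongest of 9 relations with HSPA1A, a set chosen after seeing the data. BAG3 had r = 0.38 (permutation p = 0.0291, adjusted 0.131) and rho = 0.45 (permutation p = 0.0107, adjusted 0.0482), with r = 0.16 in CHF dogs and 0.60 in noCHF dogs. HSPH1, the exchange factor HSP110, had r = 0.24 and rho = 0.23 (adjusted permutation p = 0.418 and 0.439). HSPA8, HSP90AA1, DNAJA1, HSPB1 and HSPA5 had r from 0.15 to 0.22, and BAG4 had r = -0.20 (each with an adjusted permutation p of 0.418 for r). Their rho values lay between -0.13 and 0.28 (adjusted permutation p of 0.359 to 0.641).

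**Figure D4:**
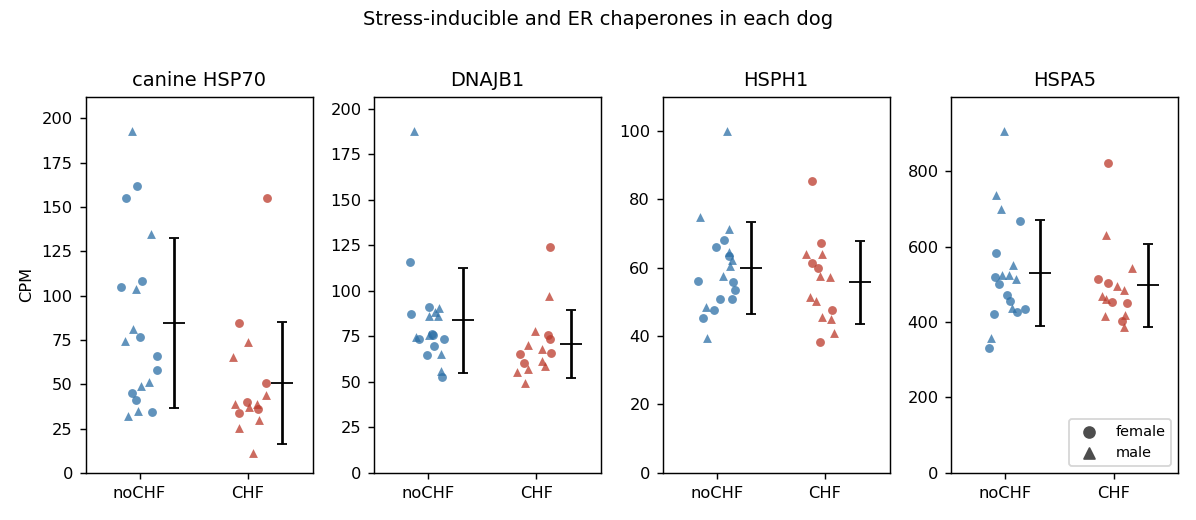
CPM of the canine HSP70 feature, DNAJB1, HSPH1 and HSPA5 in each dog by group, with circles for females and triangles for males; black bars give the mean ± SD (n = 19 and n = 15), and each axis starts at 0. The CHF dogs crowd at the low end for HSP70 (median 39.1 against 74.2 CPM), with CAV1872 at 155 CPM as the highest of them.

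Of the 9 cytosolic inducible members, 5 had positive and 4 negative estimates for CHF, with a median of 0.008. The 2 with an unadjusted edgeR p below 0.05, HSPA1A and HSPA1B, share reads of the HSP70 locus. HSPH1 had 55.7 ± 12.1 CPM in CHF dogs and 59.8 ± 13.5 CPM in noCHF dogs (log2 fold change -0.11, FDR 0.93). HSPA8, the constitutive cytosolic HSP70, had 549 ± 122 and 542 ± 86.2 CPM (log2 fold change 0.02, interval -0.16 to 0.20, FDR 0.987). HSP90AA1, the inducible cytosolic HSP90, had 699 ± 168 and 672 ± 134 CPM (0.06, interval -0.14 to 0.26, FDR 0.961). The features of HSPA8 and HSP90AA1 lie in more than 1 place of the genome.

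In the endoplasmic reticulum, where collagens and other secreted proteins of the valve fold, 2 of 7 tested members had positive and 5 negative estimates, from -0.10 to 0.01. HSPA5 (BiP), the HSP70 of that compartment and a marker of its stress response, ran from 387 to 823 CPM (median 468) in CHF dogs and from 330 to 907 CPM (median 513) in noCHF dogs. Its log2 fold change was -0.10 (interval -0.32 to 0.13, FDR 0.945). HSP90B1 (GRP94), its HSP90 partner, had 668 ± 82.4 and 688 ± 122 CPM, a log2 fold change of -0.04 (interval -0.20 to 0.11, FDR 0.964). The 8 mitochondrial members, among them HSPD1 and HSPE1, which form the mitochondrial folding chamber, had a median of 0.050, with 7 positive and 1 negative and none below an unadjusted p of 0.05.

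Among J proteins, DNAJC17 and DNAJC13 had an unadjusted p below 0.05. DNAJC17, known as a splicing-related J protein, ran from 40.8 to 75.9 CPM (median 60.3) in CHF dogs and from 36.5 to 66 CPM (median 54.5) in noCHF dogs, with a log2 fold change of 0.18 (SE 0.078, p = 0.0294, edgeR FDR 0.741). DNAJC13, which acts on endosomes, ran from 49.8 to 68.4 CPM (median 60.6) and from 39.6 to 65.2 CPM (median 56.4), with 0.13 (SE 0.058, p = 0.0379, edgeR FDR 0.776). Both overlapped between the groups, and 11 and 10 of the 15 CHF dogs lay above the noCHF median. The feature of DNAJC17 overlaps 2 other protein-coding genes, C30H15orf62 and GCHFR, and that of DNAJC13 overlaps none.

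The remaining members with the smallest p were DNAJB13 and HSPA12B. DNAJB13, a J protein of motile cilia and sperm tails, had 2.98 ± 1.24 and 3.77 ± 1.55 CPM (log2 fold change -0.40, p = 0.0622, edgeR FDR 0.803). HSPA12B, a distant HSP70 relative of endothelial cells, had 16.7 ± 4.15 and 14.4 ± 4.35 CPM (0.24, p = 0.0656, edgeR FDR 0.805). Several further estimates had wide errors. DNAJC6 had 0.36 (SE 0.49), HSPB7 0.29 (SE 0.68), DNAJC12 0.28 (SE 0.46) and HSPB9 -1.33 (SE 0.9). HSPB9, a testis protein, had 24 counts in 3 of 15 CHF dogs and 76 counts in 9 of 19 noCHF dogs. DNAJB3 and DNAJB8 had 0 counts in all dogs, which allows up to 0.065 CPM (3 counts) in the smallest library, for counting error only.

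Heart muscle content separated the dogs far more than CHF did for several members. Each feature was fitted against the cardiomyocyte marker mean, with CHF and sex in the model, and the slope is the change in log2 CPM per unit of that mean. Of 73 members, 29 had a positive slope (39.7%) and 3 a negative slope (4.11%) at an edgeR FDR below 0.1. Of all 19549 features outside the marker list 37.8% were called, 19.1% with a positive and 18.7% with a negative slope. With upper-quartile scaling 34 of the 73 members were called, 27 of the 73 with a positive slope. Of all features tested, 16.4% were then called with a positive and 27.1% with a negative slope. Among the 47 members whose feature holds only their own gene, 21 had a positive and 2 a negative slope.

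The steepest slopes belonged to small heat shock proteins of muscle. HSPB3, which forms complexes with HSPB2 in muscle, had a slope of 1.0 (SE 0.064, edgeR FDR 4.31e-15), so that it changed fold for fold with the markers. It ran from 0 to 15.4 CPM in CHF dogs and from 0 to 8.86 CPM in noCHF dogs. HSPB7, the cardiovascular small heat shock protein, had a slope of 0.74 (SE 0.029, edgeR FDR 2.12e-21) and ran from 6.59 to 1049 CPM (median 124) in CHF dogs and from 4.7 to 696 CPM (median 74.9) in noCHF dogs. The highest dog had 223-fold the level of the lowest. HSPB1, HSPB2 and HSPB8 had slopes of 0.13, 0.13 and 0.07 (edgeR FDR 6.08e-06, 5.35e-05 and 0.000409). HSPB6, abundant in smooth and heart muscle, was not called, at 0.02 (SE 0.022, FDR 0.545), nor were HSPB11 (0.02, FDR 0.445) and HSPB9 (-0.28, FDR 0.159).

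Slopes were seen in other families too. DNAJC6, or auxilin, which uncoats clathrin vesicles with HSPA8, had a slope of 0.40 (edgeR FDR 4.47e-09), DNAJA4 0.26 (FDR 1.80e-11) and DNAJB5 0.23 (FDR 4.55e-08). Among the BAG genes, BAG3 had 0.09 (FDR 0.000958), BAG5 0.04 (FDR 0.000325) and BAG1 -0.02 (FDR 0.095). In mitochondria 5 of 8 members had a positive slope, with DNAJC19, a part of the import motor, highest at 0.09 (FDR 1.42e-05), HSPA9 (mortalin) at 0.08 (FDR 7.87e-06) and HSPD1 at 0.07 (FDR 4.65e-05). DNAJC30 had the lowest of that list, -0.01 (FDR 0.461). HSPA12A and HSP90AA1 led the HSPA and HSP90 families with 0.09 (FDR 7.85e-06) and 0.07 (FDR 6.28e-05). In the endoplasmic reticulum only DNAJC1 of 7 members was called, with 0.04 (FDR 0.00185), and HSPA5, HSP90B1 and DNAJC3 had 0.01, -0.01 and -0.02 (FDR 0.867, 0.766 and 0.208). The canine HSP70 feature (-0.02, FDR 0.769), HSPA1B (-0.02, FDR 0.268) and DNAJB1 (-0.00, FDR 0.997) were not called either. Steeper negative estimates that were not called belonged to DNAJB13 (-0.07, FDR 0.104) and DNAJC22 (-0.05, FDR 0.38).

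Most of these calls were small, with an absolute slope under 0.1 in 22 of 32 and of 0.2 or more in 5. The 3 negative slopes (DNAJC17, DNAJC7 and BAG1) were weak, at -0.03, -0.02 and -0.02 with FDR values of 0.0867, 0.0717 and 0.095. Fitted in the CHF dogs alone, 26 members were called (24.8% of all features were), and in the noCHF dogs alone 28 (20% of all features). Both fits shared 25 members, all of them also called over all dogs. HSPB7 had slopes of 0.79 and 0.71 in these fits, HSPB3 1.08 and 0.96, and BAG4 0.00 in both. With the marker mean as a covariate, the CHF log2 fold change of HSPB7 was -0.09 in place of 0.29. That of HSPA1A stayed at -0.70. In the fit without this covariate, leaving out CAV1047 gave -0.51 for HSPB7.

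**Figure D5:**
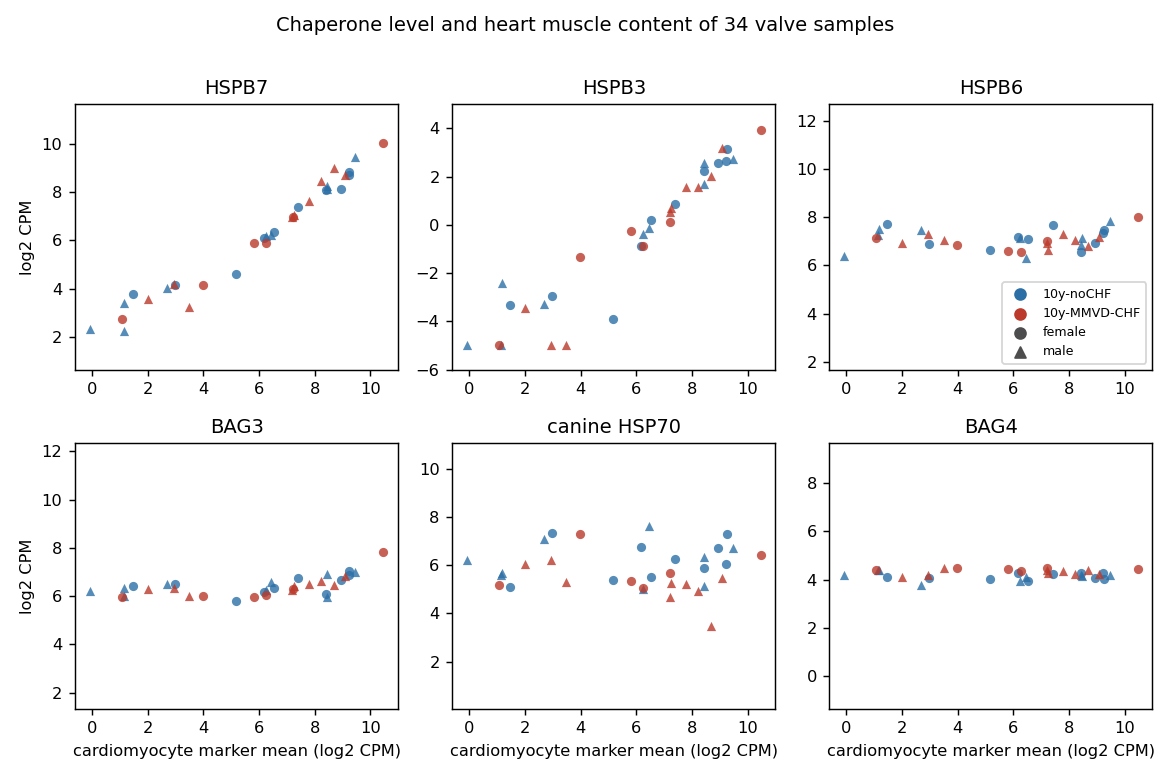
Log2 CPM of 6 chaperones in each of the 34 dogs against the mean log2 CPM of 19 cardiomyocyte markers, with colours for groups and circles and triangles for females and males. Every vertical axis spans the same log2 range, and HSPB3 at its lowest values had 0 counts. HSPB7 and HSPB3 climb steadily with the markers in both groups (slopes 0.74 and 1.0), while HSPB6, canine HSP70 and BAG4 do not.

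The spread over dogs varied between members. The highest dog had less than 2 times the level of the lowest for 26 members, 2 to 5 times for 30 and more than 5 times for 14, and the remaining 3 members had at least 1 dog at 0. BAG4 differed 1.62-fold between the highest and the lowest dog.

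The immediate-early genes, such as FOS and EGR1, respond within minutes to stimuli including tissue handling. Their mean ran from 5.07 to 6.38 log2 CPM in CHF dogs and from 5.19 to 6.77 in noCHF dogs. No member had a slope on it at an edgeR FDR below 0.1, against 0.112% of features (0.215% with DESeq2 and 0.107% with limma voom, which called no member either). At an unadjusted p below 0.05 there were 2 members, DNAJB11 with 0.20 (SE 0.088) and HSPA13 with 0.20 (SE 0.093), both of the endoplasmic reticulum, or 2.74% of members against 3.97% of features. Larger estimates had wide errors, as in HSPA6 (0.60, SE 0.41) and the canine HSP70 feature (0.57, SE 0.4). The steepest negative values were -0.56 (SE 1.3) for HSPB9, -0.42 (SE 0.63) for DNAJC6, -0.23 (SE 0.41) for DNAJA4 and -0.20 (SE 0.22) for BAG3. BAG4 had -0.01 (p = 0.861, edgeR FDR 1).

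Between males and females 0 members had an FDR below 0.1 with edgeR, DESeq2 or limma voom, which called 0.143%, 0.189% and 0.153% of features. BAG1 alone had an unadjusted p below 0.05, or 1.37% of members against 2.98% of features. It was higher in males by 0.17 on the log2 scale (SE 0.063, p = 0.00911, edgeR FDR 1). Its level was 95.2 ± 11.1 CPM in male (SD, n = 9) and 81.2 ± 8.78 CPM in female noCHF dogs (SD, n = 10), and 96.3 ± 12.5 CPM in male (SD, n = 9) and 89.9 ± 13.2 CPM in female CHF dogs (SD, n = 6). For the interaction of CHF and sex 0 members were called, and the tools called 0%, 0.0153% and 0% of features. At an unadjusted p below 0.05 there were 2 members (2.74%, against 6.02% of features), HSPB9 and DNAJA1. DNAJA1, a J partner of HSPA8, had 75.3 ± 14.7 CPM in female CHF dogs (SD, n = 6) and 63.6 ± 11.7 CPM in female noCHF dogs (SD, n = 10), and 65.7 ± 7 against 71.6 ± 10.6 CPM in males (SD, n = 9 each). The CHF log2 fold change of DNAJA1 differed by -0.37 between males and females (p = 0.0285, edgeR FDR 0.817).

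Genes that work with the chaperones were followed in 6 lists. No gene of these lists had an FDR below 0.1 for CHF with edgeR or DESeq2. Of 4 tested heat shock factors and regulators 1 had a positive and 3 a negative estimate. HSF1, the master regulator, had 37.3 ± 5.15 and 37 ± 4.57 CPM (log2 fold change 0.02, FDR 0.983), and HSF5 had the smallest p of the list (-0.41, p = 0.239, edgeR FDR 0.904). Among 19 tested cofactors of HSP90 and HSP70, 12 were positive and 7 negative, and FKBP5 alone had a p below 0.05. FKBP5, an HSP90 co-chaperone of the glucocorticoid receptor and a known target of glucocorticoids, ran from 41.4 to 208 CPM (median 66.5) in CHF dogs and from 26.2 to 101 CPM (median 46) in noCHF dogs. Its log2 fold change was 0.73 (SE 0.23, p = 0.00305), with an edgeR FDR of 0.428 and 0.162 by DESeq2.

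The 8 chaperonin genes, which fold actin and tubulin, had 6 positive and 2 negative estimates, with CCT6A lowest in p (-0.10, p = 0.031, edgeR FDR 0.744). The 11 genes of folding in the endoplasmic reticulum had 2 positive and 9 negative estimates with a median of -0.058, CRELD2 having the smallest p (-0.26, p = 0.0545, edgeR FDR 0.787). Of 5 tested relatives under other symbols, SEC63 was lowest in p (0.04, p = 0.534, edgeR FDR 0.959). Partners of BAG4 and BAG3 had 7 positive and 3 negative estimates of 10. FADD, an adaptor of death receptors, had the smallest p (0.20, SE 0.083, p = 0.023, edgeR FDR 0.702), and TNFRSF1A, the TNF receptor that BAG4 binds, had 71.7 ± 11.2 and 66.9 ± 8.16 CPM (0.10, SE 0.073, FDR 0.875).

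Levels can be compared between genes only per length, and for the features that cover introns the deposited length overstates the transcript. On that scale the highest members were HSPB8 (392 CPM per kb), HSPB1 (303), HSP90B1 (243), HSPA5 (88) and HSPA8 (66.9). The first 3 are canine RefSeq features counted over exons. Of the other 3 canine features, DNAJA1 had 45.4 CPM per kb, HSPA4 27.5 and DNAJC25 6.9. Thus 2 small heat shock proteins and the HSP90 of the endoplasmic reticulum led the canine features. Even these are only roughly comparable. The canine HSPB8 feature has 594 bases and 482224 counts, against 927115 counts in the human feature of that gene. The HSP90B1 feature overlaps another protein-coding gene, and that of DNAJA1 lies over LOC119863874.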

How the data were processed

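Polyadenylated RNA of mitral valve tissue of 34 dogs was sequenced by the study. Per the labels and file headers, the authors aligned reads with STAR and made raw counts per feature with featureCounts 2.0.3 on canFam4, and these counts were deposited for canine RefSeq genes and human RefSeq alignments. The recorded command assigns a read to each feature it overlaps, takes no account of strand and treats mates of a pair as separate reads, so 71% of counts above 0 were even and overlapping genes share reads. Groups and sexes follow the labels. 1 column of counts belongs to no sample and was not used.

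Where a symbol had a canine and a human feature (6 members), the canine one was taken. Features reaching 100 counts over all dogs were tested with edgeR 4.0.16 in R 4.3.3 (quasi-likelihood test with TMM scaling and a term for sex, Benjamini-Hochberg over 19568 features, FDR threshold 0.1). CPM are TMM-scaled, and log2 CPM used a prior count of 2. SEs were derived from the test statistic, with intervals of 1.96 SE, and are approximate. DESeq2 1.42.0, limma 3.58.1 voom with sample weights, RLE and upper-quartile scaling, other filters, no sex term, marker means as covariates, 1 feature per symbol, an FDR threshold of 0.05 and leaving out dogs were alternatives. The fits were tested on simulated data. Relations across dogs were two-sided and permuted within group and sex (100000 resamples). p-values judge a difference, slope or relation against the spread between dogs.

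Values are given for the BAG genes, members called for CHF by edgeR or DESeq2, the 10 smallest p, the 3 largest estimates each way, the 5 highest per kb, the steepest slopes of each list, members called for sex or interaction and members under 100 counts. Of the lists outside the members, called genes or the one of smallest p were taken. The canine HSP70 feature, HSPH1, HSF1 and other genes outside this rule were added after their values were seen. Members and lists were chosen with earlier results of these data known. Gene positions of RefSeq on the same assembly (UU_Cfam_GSD_1.0) were used, and no sequences were analysed here.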

Additional observations from a re-analysis of the deposited data

Results flagged for a closer look

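In 5 of 44 groups of a gene by CHF status and sex (11 genes), a single dog lay farther from its nearest neighbour on the log2 CPM scale than Dixon's 95% limit allows, where chance flags about 1 in 20 groups. CAV1872, a female 10y-MMVD-CHF dog, was highest for both DNAJB1 (124 CPM against a group median of 69.7, gap 0.687 of the group's range) and HSPA5 (823 against 478 CPM, gap 0.661), and had 142 CPM of HSPA1A. CAV488, a male 10y-noCHF dog, was highest for DNAJB1 (188 against a median of 86.1 CPM, gap 0.604) and had 205 CPM of HSPA1A, the most of any dog. CAV1047, the dog with the most cardiomyocyte markers, had 231 CPM of BAG3 against a female 10y-MMVD-CHF median of 65.4 (gap 0.814). CAV748, a female 10y-noCHF dog, was lowest for BAG1, at 62.4 against a median of 81 CPM (gap 0.486).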

How the results depend on the processing

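No paired analysis was possible because the labels give no replicate numbers that tie dogs of the groups together. The count of members with an FDR below 0.1 for CHF was 0 with edgeR and 1 with both DESeq2 and limma voom, and 0 to 1 with any single dog removed (1 without CAV1049). Members with an unadjusted p below 0.05 numbered 7, but 2 of the 47 whose feature holds only their own gene, 4 with the HSP70 locus counted once, and 6 to 9 with single dogs left out (9 without CAV1114). The log2 fold change of BAG4 passed the threshold with DESeq2 (0.21) and limma voom (0.23), and it was 0.19 to 0.23 with single dogs left out. The count of slopes on the cardiomyocyte markers was 32, and 28 to 34 with single dogs left out. The log2 fold change of HSPB7 changed sign, from 0.29 to -0.43 without CAV614 and CAV1047 and to -0.09 with the cardiomyocyte marker mean as a covariate, and it ranged from -0.51 to 0.70 with single dogs left out. The negative slopes of DNAJC7 and BAG1 missed the threshold in 6 and 7 of 11 alternatives. No member was called for sex or the immediate-early mean when any dog was left out. Causes of these changes were not tested. Counts near 0 limit HSPB9, HSPB3 and DNAJC12, each of which had at least 1 dog at 0. For HSPB3 the dogs at 0 included CAV487, which had the largest library (82361245 counts). The smallest library, CAV1047 (46185256 counts), had 15.4 CPM of HSPB3.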
